A study of Mus musculus with 13 samples.

Results

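Trametinib, an inhibitor of the kinases MEK1 and MEK2, was compared with vehicle in SM1 tumours of mice that had received pmel-1 splenocytes. The comparison held every array titled as pmel-1 with trametinib (2) or with vehicle (2), 4 arrays of the 13 in the series, and ran across 13785 genes. SM1 is a transplantable mouse melanoma with an activating Braf mutation, grown here in C57BL/6 mice. All 4 tumours of the comparison came from mice given pmel-1 splenocytes by adoptive transfer. T cells of pmel-1 mice carry a receptor for the melanocyte protein encoded by Pmel. The tumours differed in the agent given, which was vehicle alone or trametinib alone. Further pmel-1 recipients had been given the BRAF inhibitor dabrafenib (2 arrays) or both drugs (3 arrays), and these served for direct comparisons. Recipients of C57BL/6 splenocytes, given vehicle (2 arrays) or both drugs (2 arrays), entered the estimate of the spread, and the 2 vehicle arrays of these recipients also 1 range given below. The labels give no drug doses, treatment times or animal ages. Nothing in the labels says that the arrays of a group came from different animals. The p-values therefore reflect only how far these samples spread, which may be technical.

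RAF, MEK and ERK are kinases that act in series downstream of growth factor receptors and RAS. Active ERK induces transcription factors of the ETS and AP-1 families, cyclin D1 and a set of its own inhibitors, the dual-specificity phosphatases and the Sprouty and Spred proteins, so that the amounts of these transcripts follow the activity of the pathway. In melanoma cells a mutant BRAF keeps MEK and ERK active without growth factors, and the pathway holds down part of the pigment cell programme, which depends on the transcription factors MITF and SOX10.

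All levels below are log2 intensities of 1 probe set per gene. A difference is trametinib minus vehicle on the log2 scale, ± SE, with its adjusted p from limma. The words rise, fall and change are kept for genes whose adjusted p was under 0.05. A level under 5.79, the 40th percentile of all values, is taken as not well above background, and no fold is given where all arrays of a group lie under it. The tumours carried the defining markers of pigment cells on all 4 arrays: Pmel read 12.56 to 14.14, Dct 14.47 to 14.93 and Sox10 13.10 to 13.55. Tyrp1 was the exception among the melanosome enzymes, with 4.96 and 5.21 under vehicle. The arrays within a pair were close, with r = 0.992 across genes for trametinib and 0.994 for vehicle, against 0.943 to 0.951 between the groups. Only 45 genes lay 2-fold or more apart between the trametinib arrays. Trametinib replicate 1 stood apart from replicate 2 most in genes that adipocytes express: Adipoq, an adipocyte hormone, read 9.30 on replicate 1 and 5.41 on replicate 2, and Car3 10.63 and 5.81, against 4.75 to 5.55 for both genes under vehicle. The mean of 5 adipocyte genes was 9.11 and 6.36 under trametinib and 6.41 and 6.31 under vehicle. RNA integrity was read from 4 control transcripts with probe sets at both ends. The mean log2 signal at the 3′ end over that at the 5′ end, called the end ratio below, was 1.78 and 1.51 under trametinib and 1.28 and 1.25 under vehicle. The 4 transcripts differed: Actb (1.57 and 0.93 against 0.34 and 0.32), Gapdh and Tfrc read higher under trametinib. Pcx read lower, at 1.94 and 1.94 against 2.25 and 2.39. Of 146 named genes that changed, 103 still passed with the end ratio as a term in the fit. Values with this ratio as a term are given for most groups and leading genes for which it mattered. Its part in the results was not tested otherwise. In whole tumours, fewer cells of a type and less RNA per cell cannot be told apart.

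Trametinib changed 5323 of the 13785 genes (38.6%), raising 2693 (19.5%) and lowering 2630 (19.1%). A change of at least 2-fold was seen in 1285 genes (9.32%), 600 of them higher and 685 lower. At 4-fold or more there were 78 rises and 79 falls. The median difference over all genes was 0.03 and its median SE 0.14. Both trametinib arrays lay outside the range of all 4 vehicle arrays, those of control recipients included, for 97.1% of the genes called and 59.6% of the genes tested. The trametinib and vehicle arrays of pmel-1 recipients did not overlap for 71.7% of the genes tested, so lack of overlap in a single gene is common. The count of changed genes stayed between 3643 and 4110 when any of the 4 arrays was left out. With the end ratio as a term it was 3563, and 63.3% of the calls were kept.

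The pigment cell genes Kcnj13 (5.48 ± 0.27), Trpm1 (3.89 ± 0.29) and Gpr143 (3.87 ± 0.29) and the interferon-induced genes Rtp4 (3.53 ± 0.25) and Usp18 (3.08 ± 0.32) were among the 12 largest rises. The others were Mgll, which encodes monoacylglycerol lipase (4.10 ± 0.33), Hhatl (3.86 ± 0.13), Astn1 (3.59 ± 0.15), Tmem140 (3.46 ± 0.35), Sytl2, whose product binds the melanosome protein RAB27A (3.35 ± 0.18), the gap junction gene Gjb6 (3.33 ± 0.15) and Nrip3 (3.32 ± 0.25). Both trametinib arrays were above both vehicle arrays for each of them, but groups without overlap were a condition of this choice of rises and falls. Another probe set of Mgll differed by 0.08. Averaged over all probe sets of each gene, Mgll was 2.60, Tmem140 2.02 and Nrip3 2.06. The 12 largest falls held Hmga2 (−4.74 ± 0.35), Etv5 (−4.62 ± 1.10) and Etv4 (−3.04 ± 0.12), which ERK induces. The extracellular matrix and adhesion genes Hapln1 (−4.02 ± 0.58), Itga8 (−3.60 ± 0.25) and Lyve1 (−3.01 ± 0.50) fell with them. The remainder were the casein gene Csn3 (−3.87 ± 0.68), Myrfl (−3.42 ± 0.19), the homeobox gene Hoxa11 (−3.31 ± 0.22), the hedgehog ligand Dhh (−3.25 ± 0.28), Nwd2 (−3.09 ± 0.76) and the pore-forming protein gene Gsdme (−3.00 ± 0.30). The trametinib arrays read Hapln1, Lyve1 and Myrfl under 5.79 and the vehicle arrays Usp18, so the sizes of these differences are not exact. Nwd2 was −1.47 (adjusted p = 0.0603) and Etv5 −2.60 (adjusted p = 0.0779) with the end ratio as a term. Averaged over all probe sets Csn3 was −2.14, Itga8 −2.28 and Gsdme −1.85.

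Genes that report ERK activity fell. Of 9 ERK feedback inhibitors tested, 6 fell and 0 rose, with a median difference of −1.38. Dusp6, the phosphatase that removes the activating phosphates of ERK, read 12.69 and 12.80 under vehicle and 11.63 and 10.84 under trametinib. It fell by 1.51 ± 0.37 (adjusted p = 0.00769), 2.85-fold, with no overlap between the groups. Spry4, which blocks signalling from receptors to RAS, read 8.95 and 10.04 under vehicle and 6.60 and 6.87 under trametinib, a fall of 2.76 ± 0.64 (adjusted p = 0.00546). Its relatives Spry2 (−1.74 ± 0.38) and Spry1 (−1.62 ± 0.23) fell as well. So did Spred2 (−1.38 ± 0.45) and, to a small extent, Spred3 (−0.32 ± 0.11). The groups did not overlap for these genes or for Dusp4 (−0.65 ± 0.35) and Spred1 (−0.46 ± 0.18), which did not pass. That made 8 of 9 without overlap, against 71.7% of all genes tested. Dusp5, which is also an ERK phosphatase, differed by −0.07 ± 0.14. The group depends on single arrays: the count of falls was 3 without vehicle replicate 2 or trametinib replicate 2, 4 without vehicle replicate 1, 6 without trametinib replicate 1, and 1 with the end ratio as a term. Without trametinib replicate 2, Dusp6 was −1.12 (adjusted p = 0.074) and Spred2 −1.05 (adjusted p = 0.184), and without vehicle replicate 2 Spry4 was −2.22 (adjusted p = 0.0539). Spred2 also lost its call without either vehicle array (−1.45 and −1.30) and Spred3 without any 1 of the 4 arrays, from −0.25 to −0.38. With the end ratio as a term Dusp6 was −1.08 (adjusted p = 0.0943), Spry4 −1.62 (adjusted p = 0.0682) and Spred2 −0.65 (adjusted p = 0.334). Spry1 kept its call in every alternative run. Spry2 lost it only with the end ratio as a term (−1.38, adjusted p = 0.0532).

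Among 14 ERK-induced transcription factors tested, 5 fell and 1 rose, and the median was −0.64. Etv4, an ETS factor of the PEA3 group, read 10.24 and 10.27 under vehicle and 7.05 and 7.38 under trametinib. It fell by 3.04 ± 0.12 (adjusted p = 2.28e-07), an 8.23-fold change with a gap between the groups far wider than the spread inside them, and by 1.94 as the mean of its probe sets. Etv5, its close relative, read 11.74 and 11.95 under vehicle and 7.67 and 6.79 under trametinib, 24.5-fold lower. The immediate early gene Egr1, a zinc finger factor that serum and growth factors induce, read 10.66 and 10.41 under vehicle and 8.05 and 7.24 under trametinib. It fell by 2.89 ± 0.34, 7.41-fold, again without overlap. Ier3 (−0.78 ± 0.15) and Ier2 (−0.75 ± 0.25), which are also immediate early genes, fell less. Ier2 lost its call without any 1 of the 4 arrays (−0.66 to −0.84). Most of the AP-1 family did not pass: Fos differed by −0.84 ± 0.37, Jun by −0.68 ± 0.25, Fosb by −0.56 ± 0.43 and Junb by −0.03 ± 0.23. Fosl2, an AP-1 member of the FOS family, went the other way, rising by 0.93 ± 0.22, though not without vehicle replicate 2 (0.83, adjusted p = 0.0513) or trametinib replicate 1 (0.70, adjusted p = 0.0714), and by 0.50 as the mean of its probe sets. Myc (−0.59 ± 0.26), Egr2 (−0.60 ± 0.27), Atf3 (−0.38 ± 0.24) and Egr3 (−0.16 ± 0.11) did not pass. With the end ratio as a term 4 of the 14 fell and 0 rose.

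Of 9 other ERK output genes tested, 6 fell and 0 rose. Hmga2, a chromatin protein of embryonic and tumour cells, read 10.80 and 11.43 under vehicle and 6.27 and 6.47 under trametinib. Its fall of 4.74 ± 0.35 (adjusted p = 9.08e-06) was 26.8-fold, the largest fall of all genes tested. Ccnd1, which encodes cyclin D1 and links ERK to the start of the cell cycle, read 11.88 and 12.23 under vehicle and 8.97 and 9.30 under trametinib. It fell by 2.92 ± 0.41 (adjusted p = 0.000282), 7.57-fold. Smaller falls were those of the transcription factor gene Maff (−1.33 ± 0.29), the phosphate transporter and retroviral receptor gene Slc20a1 (−0.66 ± 0.18), the urokinase receptor gene Plaur (−0.58 ± 0.11) and the cytokine Lif (−0.58 ± 0.13). Hbegf (−0.56 ± 0.28), Epha2 (−0.36 ± 0.15) and Phlda1 (0.26 ± 0.12) did not pass. With the end ratio as a term 4 of the 9 fell. Slc20a1 lost its call without trametinib replicate 1 (−0.64), trametinib replicate 2 (−0.68) or vehicle replicate 2 (−0.49) and was −0.41 as the mean of its probe sets, and Maff lost it only with the end ratio as a term (−0.89, adjusted p = 0.0561).

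**Figure D1:**
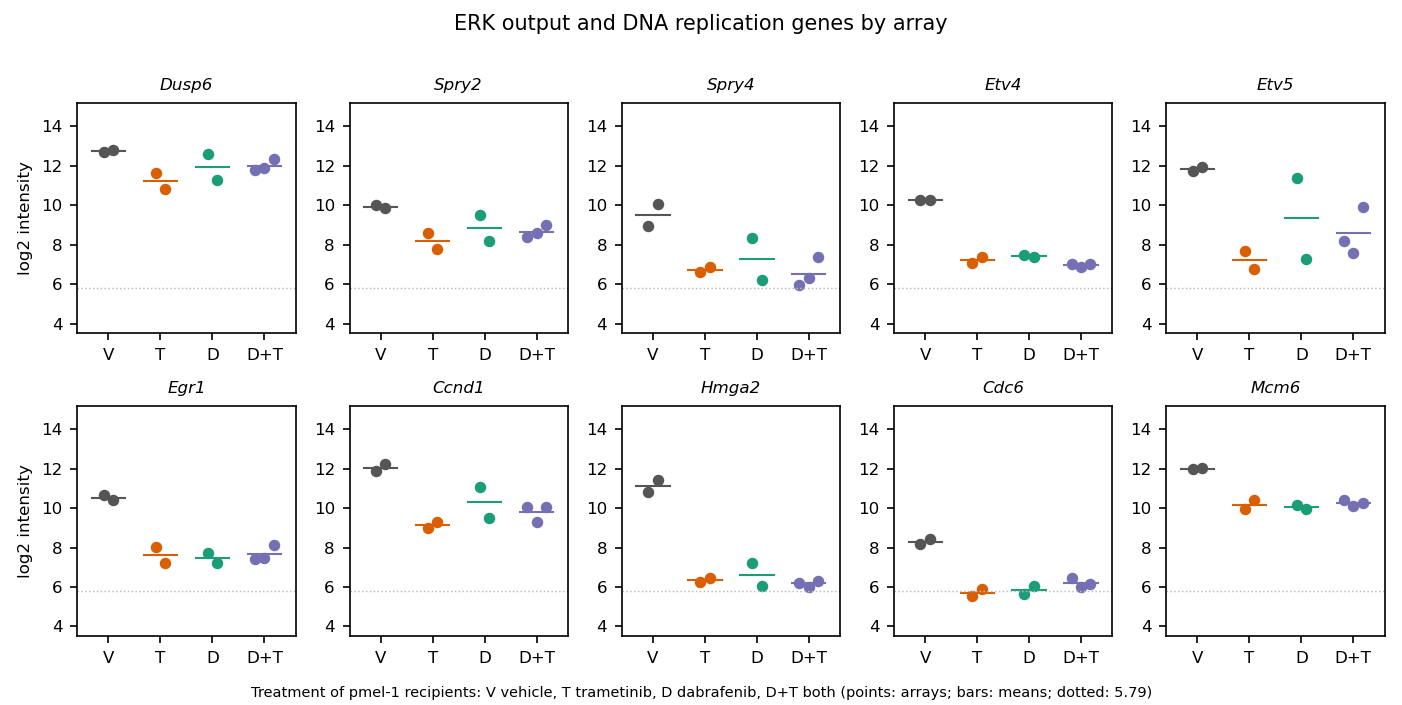
Log2 intensity (vertical axis) of 10 genes that follow ERK activity or the cell cycle, 1 panel per gene. Points are single arrays of pmel-1 recipients given vehicle (V), trametinib (T), dabrafenib (D) or both (D+T), bars are group means, and the dotted line marks 5.79. Both trametinib arrays lie below both vehicle arrays in every panel, as for Hmga2 (6.27 and 6.47 against 10.80 and 11.43), while dabrafenib replicate 1 reads Etv5 at 11.39, near vehicle.

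The cascade itself was less changed at the RNA level. Of 10 of its genes tested, 0 fell and 3 rose, against 19.1% and 19.5% of all genes. Sos1, an exchange factor that loads RAS with GTP, read 8.93 and 9.50 under vehicle and 10.35 and 10.24 under trametinib (1.09 ± 0.17). Ksr1, a scaffold for RAF and MEK (0.60 ± 0.11), and Araf (0.36 ± 0.11) rose as well. None of the 3 rises was seen when all probe sets of a gene were averaged (0.03 for Sos1, 0.28 for Ksr1 and 0.02 for Araf), and Araf also lost its call without any 1 of the 4 arrays (0.34 to 0.38). The genes of the drug's targets, Map2k1 (0.24 ± 0.12) and Map2k2 (−0.25 ± 0.10), did not pass, and neither did Braf (0.15 ± 0.13), Nras (0.03 ± 0.13) or the RAS inhibitor gene Nf1 (0.10 ± 0.12). The ERK-activated kinase gene Rps6ka3 (0.24 ± 0.11) and the MEK kinase gene Map3k8 (0.16 ± 0.13) did not pass either.

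Receptor tyrosine kinases, which feed the cascade from the cell surface, gave 4 rises and 3 falls among 16 tested, near the shares over all genes (19.5% and 19.1%). Met, the receptor for hepatocyte growth factor, read 10.92 and 11.13 under vehicle and 13.01 and 12.85 under trametinib. It rose by 1.91 ± 0.18 (adjusted p = 2.87e-05), 3.75-fold, and the TAM family receptor gene Tyro3 rose by 1.18 ± 0.14. In contrast Igf1r, the receptor for insulin-like growth factor, read 10.08 and 10.36 under vehicle and 8.58 and 8.88 under trametinib (−1.49 ± 0.25). Fgfr1, a fibroblast growth factor receptor, fell by 0.62 ± 0.16, and Kdr, the VEGF receptor of endothelial cells, rose by 0.58 ± 0.19. Erbb3, the receptor for neuregulins, differed by 0.04 ± 0.12. Fgfr1 lost its call without vehicle replicate 1 (−0.61) or trametinib replicate 1 (−0.46), and Kdr without either vehicle array (0.60 and 0.57) or trametinib replicate 1 (0.47). The count of rises was 2 without vehicle replicate 1 or trametinib replicate 1, and that of falls 1 without either. With the end ratio as a term there were 2 of each, and as the mean of its probe sets Met rose by 1.20.

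Cell cycle genes fell, most uniformly those of DNA replication, of which 17 of 18 tested fell and 0 rose (median −1.10). Cdc6, which loads the replicative helicase at origins, read 8.19 and 8.41 under vehicle and 5.52 and 5.91 under trametinib, a fall of 2.58 ± 0.20 (adjusted p = 9.08e-06) or 5.99-fold. Mcm6, a subunit of that helicase, read 11.96 and 12.01 under vehicle and 9.94 and 10.39 under trametinib. It fell by 1.82 ± 0.15, 3.52-fold. The other subunits Mcm3 (−1.67 ± 0.15) and Mcm4 (−1.15 ± 0.10) and the polymerase clamp Pcna (−1.44 ± 0.16) fell too. Both trametinib arrays were below both vehicle arrays for each of the 18 genes, where groups without overlap were found for 71.7% of all genes tested. The number of falls was 16 or 17 when any array was left out and 18 with the end ratio as a term.

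The promoters of Cdc6 and Mcm6 are shown because many promoters of this group hold an E2F-type octamer, the kind of element that E2F factors recognise at the start of S phase. The octamers searched were TTTCCCGC, TTTGGCGC, TTTCGCGC and TTTGCCGC, on both strands, from 250 bases before to 50 after the start site in the RefSeq promoter table. They were found in 7 of the 15 replication genes with a promoter there, in 1 of 12 mitosis genes and in 2 of 11 genes of the group of cyclins, kinases and inhibitors below. Of 11083 tested genes with a promoter, 4.42% held one. An ETS-type element, CCGGAAGT, was searched in the same way in ERK groups. It was found in 0 of 7 promoters of ERK feedback inhibitors and 0 of 9 of ERK-induced transcription factors, against 8.12% of all. The 250 bases upstream of the start are given 5′ to 3′ on the gene's strand, from RefSeq on GRCm38.p6, at chr11:98907901-98908150 (plus strand) for Cdc6 and chr1:128359706-128359955 (minus strand) for Mcm6. Capitals mark the octamers, 1 in Cdc6, 130 bases from the start, and 3 in Mcm6, of which 2 overlap and the nearest lies 39 bases from the start. A match is a run of letters and does not show that a factor binds there.
Cdc6: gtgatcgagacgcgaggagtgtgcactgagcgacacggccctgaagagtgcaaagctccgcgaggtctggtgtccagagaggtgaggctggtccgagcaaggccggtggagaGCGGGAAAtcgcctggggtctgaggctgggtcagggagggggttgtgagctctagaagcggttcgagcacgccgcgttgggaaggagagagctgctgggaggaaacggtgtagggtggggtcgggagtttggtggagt
Mcm6: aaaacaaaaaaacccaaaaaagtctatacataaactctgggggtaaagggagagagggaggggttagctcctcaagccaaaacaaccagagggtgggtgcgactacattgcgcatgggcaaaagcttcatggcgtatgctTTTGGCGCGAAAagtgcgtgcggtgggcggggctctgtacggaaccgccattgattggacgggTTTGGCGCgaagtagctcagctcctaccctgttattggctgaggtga

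Of 15 cyclins, kinases and inhibitors that act in G1 tested, 9 fell and 2 rose. The cyclins E, which activate CDK2, fell: Ccne2 read 8.25 and 8.74 under vehicle and 6.34 and 6.11 under trametinib (−2.27 ± 0.17, 4.82-fold). Ccne1 fell by 1.62 ± 0.15. The activators E2f1 (−1.17 ± 0.12) and E2f2 (−0.94 ± 0.11) fell with them, with no overlap between the groups. Cdkn1b, which encodes the CDK inhibitor p27, read 11.05 and 10.87 under vehicle and 11.80 and 11.17 under trametinib and did not pass (0.53 ± 0.23, adjusted p = 0.0891). The count of falls was 5 without vehicle replicate 2 or trametinib replicate 1, and 6 without either of the others or with the end ratio as a term, while the 4 genes named as falling kept their calls in every alternative run.

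Mitosis genes fell in 9 of 15 cases and rose in 0, with a median of −0.75. Aurkb, the kinase that corrects chromosome attachment, read 9.98 and 9.61 under vehicle and 7.87 and 8.0 under trametinib (−1.86 ± 0.22, 3.62-fold). Cdk1, which drives entry into mitosis, fell by 1.34 ± 0.13, the kinesin gene Kif20a by 1.0 ± 0.17 and the spindle checkpoint kinase gene Bub1 by 0.78 ± 0.14. Mki67, the gene of the proliferation marker Ki-67, read 11.66 and 11.36 under vehicle and 11.84 and 11.58 under trametinib. It did not follow the others: its difference was 0.20 ± 0.18 (95% interval −0.20 to 0.59), and its arrays overlapped. The count of falls was again 9 when any array was left out.

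Biosynthetic pathways fell as well. All 11 sterol synthesis genes tested fell (median −1.21). Fdps, which makes farnesyl diphosphate, read 10.77 and 10.60 under vehicle and 8.44 and 8.80 under trametinib, a fall of 2.07 ± 0.25 (adjusted p = 0.000116) or 4.19-fold. Idi1 (−1.72 ± 0.19), Lss, the lanosterol synthase gene (−1.26 ± 0.15), Dhcr7 (−1.17 ± 0.14) and Hmgcs1, which opens the pathway (−1.12 ± 0.15), fell without overlap. The count was 10 without trametinib replicate 2 and 11 without any other array, and Fdps fell by 1.06 as the mean of its probe sets. A sterol element, TCACNCCAC on either strand, was found in 1 of 8 of their promoters, that of Hmgcs1, and in 1.46% of all. Of 14 genes of ribosome biogenesis tested, 12 fell and 0 rose (median −0.95). Nolc1, a nucleolar chaperone, read 10.22 and 10.25 under vehicle and 8.21 and 8.22 under trametinib (−2.02 ± 0.24, 4.06-fold). The box C/D particle proteins Nop56 (−1.79 ± 0.13) and Fbl, the methyltransferase fibrillarin (−1.55 ± 0.16), the pseudouridine synthase Dkc1 (−1.77 ± 0.24) and Polr1a, the largest subunit of RNA polymerase I (−1.13 ± 0.11), fell too. With the end ratio as a term 9 of the 14 fell. Between 11 and 12 of the 14 fell when any array was left out.

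Lysosome genes mostly went the other way, with 7 rises and 2 falls among 11 tested (median 0.59). Mcoln1, a calcium channel of the lysosome, read 9.83 and 9.81 under vehicle and 10.97 and 10.93 under trametinib, a rise of 1.13 ± 0.16 (adjusted p = 0.000309). Tfeb, a transcription factor that drives lysosome genes and is a relative of MITF, rose by 0.84 ± 0.11. The hydrolases Hexa (0.83 ± 0.09) and Ctsd (0.73 ± 0.11) and the proton pump subunit Atp6v0d1 (0.70 ± 0.12) rose with it. The rises numbered 7 when any array was left out or with the end ratio as a term. The falls numbered 0 without vehicle replicate 1 and 1 without vehicle replicate 2, without trametinib replicate 1 or with that ratio as a term. Among 15 genes of oxidative phosphorylation and its control tested, 1 rose and 3 fell, against 19.5% and 19.1% of all genes. The rise was that of Ppargc1a, a coactivator of mitochondrial genes that MITF induces in melanoma, which read 8.77 and 8.08 under vehicle and 10.14 and 9.53 under trametinib (1.41 ± 0.25, 2.66-fold). Tfam, which packages and transcribes mitochondrial DNA, fell by 0.80 ± 0.13. The falls numbered 1 without vehicle replicate 2 or with the end ratio as a term.

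Of 17 hypoxia and glycolysis genes tested 3 fell and 1 rose, shares below those of all genes. Egln3, an oxygen-sensing hydroxylase, read 9.77 and 9.67 under vehicle and 7.85 and 7.88 under trametinib (−1.86 ± 0.27, 3.62-fold). Slc2a1, the main glucose transporter of tumours, differed by −0.51 ± 0.33 and did not pass. With the end ratio as a term 1 of the 17 fell and 0 rose. Adm, a vasodilator peptide gene, rose by 0.76 ± 0.18, and by 0.61 (adjusted p = 0.059) with the end ratio as a term. Without vehicle replicate 1, vehicle replicate 2 or trametinib replicate 1 only 1 of the 17 fell. Of 10 BCL2 family genes tested 4 rose and 3 fell, against 19.5% and 19.1% of all genes. The survival gene Bcl2l1 fell from 11.05 and 11.10 to 10.38 and 10.30 (−0.74 ± 0.15), and the BH3-only gene Bik from 7.92 and 8.75 to 6.87 and 7.05 (−1.38 ± 0.22). Bmf, a BH3-only activator of cell death, rose by 1.32 ± 0.23, but its probe sets disagreed and their mean differed by 0.37 (adjusted p = 0.0759). Bcl2l11, which encodes BIM and is a known target of ERK, read 9.13 and 9.14 under vehicle and 9.62 and 9.61 under trametinib (0.48 ± 0.15, adjusted p = 0.0273). That call was lost without any 1 of the 4 arrays (0.47 or 0.48), and the mean of its probe sets differed by 0.01. The rises numbered 1 without vehicle replicate 1 or trametinib replicate 1, 2 without vehicle replicate 2 or trametinib replicate 2, and 1 with the end ratio as a term, which is near the share over all genes. The falls numbered 2 without vehicle replicate 2 or either trametinib array.

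The pigment cell programme rose. Of 19 melanocyte differentiation genes tested, 13 rose and 1 fell, with a median of 0.49. Kcnj13, a potassium channel of pigmented epithelia, read 6.34 and 6.18 under vehicle and 11.56 and 11.92 under trametinib. It rose by 5.48 ± 0.27 (adjusted p = 7.06e-07), 44.7-fold, the largest rise of all genes tested. Trpm1, a cation channel gene that MITF induces, read 8.0 and 8.55 under vehicle and 12.32 and 12.02 under trametinib, 14.8-fold higher. Gpr143, the receptor gene of ocular albinism that sets melanosome size, read 7.53 and 7.89 under vehicle and 11.70 and 11.47 under trametinib, 14.6-fold higher. In these 3 genes every trametinib array lay more than 3 units above every vehicle array.

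Genes that move melanosomes rose next. Rab27a, the small GTPase that tethers melanosomes to actin, read 9.46 and 9.38 under vehicle and 11.70 and 11.46 under trametinib (2.16 ± 0.18, 4.47-fold). Mlph, its partner melanophilin, rose by 1.93 ± 0.26, and Rab38, which delivers enzymes to the melanosome, by 1.83 ± 0.16. Pmel, which builds melanosome fibrils and is the source of the antigen seen by pmel-1 T cells, read 12.82 and 12.56 under vehicle and 14.14 and 14.00 under trametinib. It rose by 1.38 ± 0.15 (adjusted p = 6.63e-05), 2.60-fold, with no overlap. The endothelin receptor gene Ednrb rose by 1.29 ± 0.13. As means of all probe sets Rab27a rose by 1.29 and Ednrb by 0.75.

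Genes of melanin synthesis that passed rose by less. Dct lay close to the array maxima of 14.94 to 15.06, and whether this limited its rise was not tested. Tyr, the rate-limiting enzyme, read 12.97 and 12.97 under vehicle and 13.38 and 13.53 under trametinib (0.48 ± 0.10). Dct, which converts dopachrome, rose by 0.40 ± 0.09 and lost its call without trametinib replicate 1 (0.34, adjusted p = 0.0585). Tyrp1 passed (0.85 ± 0.22), but was not well above background under vehicle and lost its call without vehicle replicate 1 (0.73) or trametinib replicate 1 (0.65). Mlana (0.25 ± 0.14), Slc45a2 (0.04 ± 0.18), Oca2 (0.04 ± 0.52), Gpnmb (0.19 ± 0.09) and the receptor for melanocortin, Mc1r (0.17 ± 0.19), did not pass. The factors that drive the programme rose little: Mitf read 12.91 and 13.04 under vehicle and 13.46 and 13.47 under trametinib (0.49 ± 0.10), and Sox10 rose by 0.37 ± 0.10. Averaged over all probe sets, Mitf differed by 0.11 and Sox10 by 0.09, and neither passed. Sox10 also lost its call without vehicle replicate 1 (0.32), trametinib replicate 1 (0.39) or trametinib replicate 2 (0.35). Tyr did not pass over all probe sets (0.43, adjusted p = 0.0637). Kit, the receptor for stem cell factor, was the fall of the group, from 9.42 and 9.66 to 7.88 and 7.86 (−1.67 ± 0.31, 3.18-fold). Between 10 and 13 of the 19 rose when any array was left out, and 12 with the end ratio as a term.

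The promoters of Trpm1 and Kcnj13 are shown because they carry the E-box form TCATGTG, or CACATGA on the other strand, that MITF is known to bind. TCATGTG or TCACGTG was found, on either strand and within the same 300 bases, in 7 of the 13 melanocyte genes with a promoter in the table (Dct, Kcnj13, Mc1r, Mlph, Trpm1, Tyr and Tyrp1). The share over all 11083 tested genes with a promoter was 9.12%, and it was 2 of 11 for ribosome biogenesis. Mc1r, which did not pass (0.17 ± 0.19), held it too, and whether holding it goes with the size of the rise was not tested. The 250 bases upstream of the start, 5′ to 3′ from RefSeq on GRCm38.p6, are at chr7:64153585-64153834 (plus strand) for Trpm1 and chr1:87394730-87394979 (minus strand) for Kcnj13. Capitals mark the heptamer, 135 bases from the start in Trpm1, for 1 of its 2 starts in the table, and 105 bases from it in Kcnj13.
Trpm1: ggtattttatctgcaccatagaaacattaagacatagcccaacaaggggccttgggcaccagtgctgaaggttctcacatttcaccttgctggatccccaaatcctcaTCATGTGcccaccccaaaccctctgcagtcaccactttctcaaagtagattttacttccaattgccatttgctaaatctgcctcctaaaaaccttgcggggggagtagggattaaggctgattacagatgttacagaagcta
Kcnj13: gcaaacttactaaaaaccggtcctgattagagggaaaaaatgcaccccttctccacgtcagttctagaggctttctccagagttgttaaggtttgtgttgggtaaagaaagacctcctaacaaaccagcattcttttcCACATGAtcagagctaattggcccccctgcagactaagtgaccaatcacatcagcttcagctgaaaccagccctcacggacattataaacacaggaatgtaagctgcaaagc

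**Figure D2:**
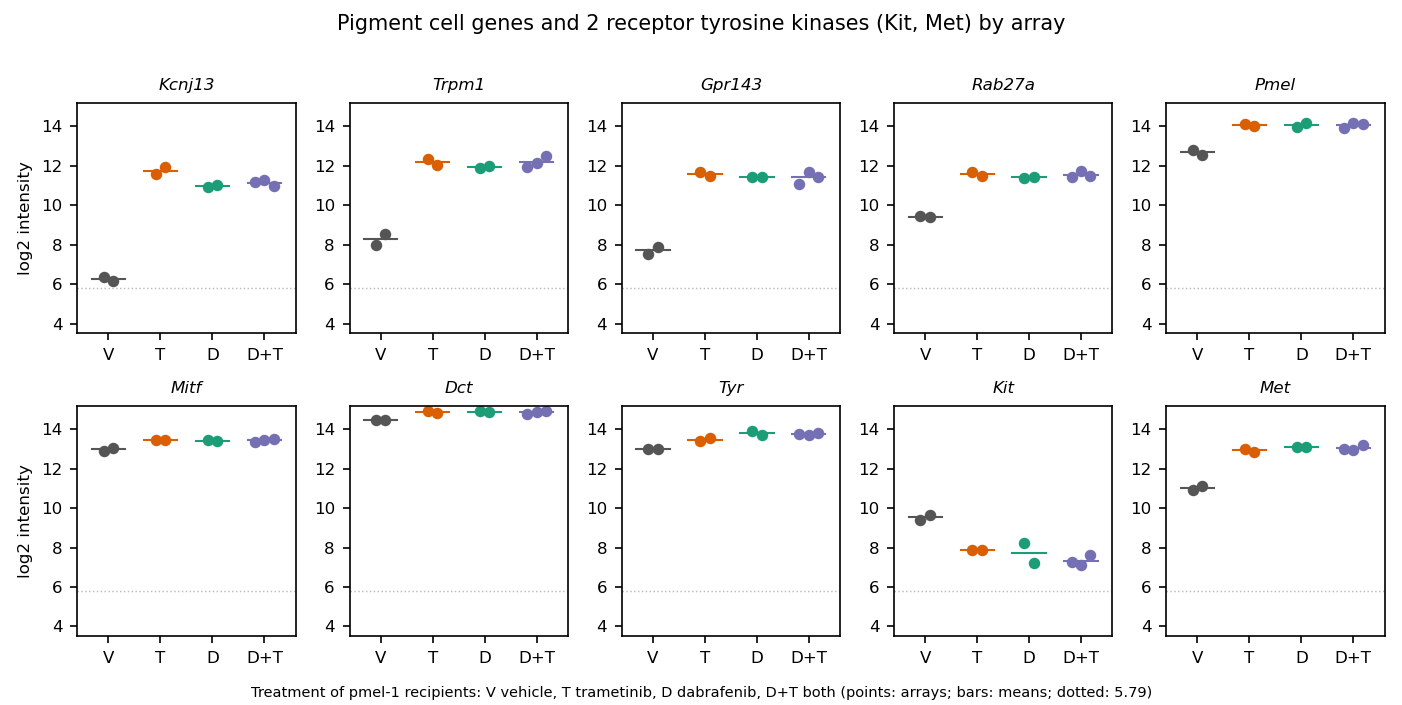
Log2 intensity (vertical axis) of 8 pigment cell genes and the receptor genes Kit and Met, 1 panel per gene. Points are single arrays of pmel-1 recipients (V vehicle, T trametinib, D dabrafenib, D+T both drugs), bars are group means and the dotted line marks 5.79. Kcnj13, Trpm1 and Gpr143 stand furthest from vehicle (11.56 and 11.92 against 6.34 and 6.18 for Kcnj13), Dct and Tyr move little near the top of the scale, and Kit is lower under trametinib.

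Of 10 neural crest and dedifferentiation genes tested, 1 rose and 2 fell, no more than the shares over all genes (19.5% and 19.1%) would give. S100b, a calcium-binding protein of melanocytes and glia, rose from 11.14 and 11.29 to 12.66 and 12.66 (1.45 ± 0.16). Tfap2b, a transcription factor of the neural crest, fell from 8.53 and 7.91 to 6.04 and 6.07 (−2.17 ± 0.39), and Nes, the intermediate filament nestin, by 0.60 ± 0.12. Ngfr, the low-affinity neurotrophin receptor that marks dedifferentiated melanoma, differed by −0.39 ± 0.50, and Sox2 by −0.61 ± 0.25. Neither passed. The rises numbered 2 without vehicle replicate 1.

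Interferon-induced genes rose under trametinib. Of 15 genes of the type I response tested, 13 rose and 0 fell, with a median of 1.38. Rtp4, a chaperone gene with strong induction by interferon, read 6.99 and 6.61 under vehicle and 10.65 and 10.02 under trametinib. It rose by 3.53 ± 0.25 (adjusted p = 7.39e-06), 11.6-fold. Usp18, which removes ISG15 from proteins, read 5.17 and 5.21 under vehicle, not well above background, and 8.53 and 8.01 under trametinib. Oasl2 (2.83 ± 0.44), likewise near background under vehicle, and the viral RNA sensor gene Ddx58 (1.88 ± 0.17) rose too. Between 9 and 13 of the 15 rose when any array was left out, and 9 with the end ratio as a term.

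Genes that interferon gamma induces rose in 10 of 13 cases and fell in 1 (median 1.25). Cxcl9, a chemokine that attracts activated T cells, read 5.64 and 6.50 under vehicle and 8.33 and 7.76 under trametinib. It rose by 1.97 ± 0.34 (adjusted p = 0.000945), 3.93-fold, and its groups did not overlap. Irgm2 (2.66 ± 0.32) and Igtp (2.12 ± 0.33), GTPases of the immunity-related family, rose. The guanylate-binding protein genes Gbp6 (2.56 ± 0.52) and Gbp3 (2.06 ± 0.38) rose with them. Trametinib replicate 1 read each of these 5 genes above replicate 2, for example Gbp3 at 8.98 and 7.97. The count of rises was 5 without trametinib replicate 1, 6 without vehicle replicate 1, 8 without vehicle replicate 2, 10 without trametinib replicate 2, and 5 with the end ratio as a term. The 5 genes named kept their calls in every alternative run. The rise of Gbp6 was 1.52 with that ratio as a term.

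The promoters of Igtp and Gbp3 are shown because they hold TTTC, then any 2 bases, then TTTC, the core of the interferon-stimulated response element. It was found on either strand in 7 of 10 promoters of the type I group, 7 of 10 of the interferon gamma group, 2 of 12 of the MHC class I group and 1 of 5 of the MHC class II group. The share over all 11083 tested genes with a promoter was 3.59%. The 250 bases upstream of the start, 5′ to 3′ from RefSeq on GRCm38.p6, are at chr11:58199306-58199555 (plus strand) for Igtp and chr3:142559794-142560043 (plus strand) for Gbp3. Capitals mark the matches, 1 in Igtp, 24 bases from the start, and 2 that overlap in Gbp3, the nearer 29 bases from the start.
Igtp: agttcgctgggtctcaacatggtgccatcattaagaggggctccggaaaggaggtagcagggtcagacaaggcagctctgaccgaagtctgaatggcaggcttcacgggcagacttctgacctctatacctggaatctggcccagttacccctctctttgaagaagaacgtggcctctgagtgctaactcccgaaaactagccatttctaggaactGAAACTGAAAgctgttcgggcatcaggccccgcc
Gbp3: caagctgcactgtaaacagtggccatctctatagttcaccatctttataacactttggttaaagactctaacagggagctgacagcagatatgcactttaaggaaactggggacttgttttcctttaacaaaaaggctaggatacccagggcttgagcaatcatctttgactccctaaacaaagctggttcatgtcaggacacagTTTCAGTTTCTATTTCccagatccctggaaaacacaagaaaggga

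MHC genes rose in part. Of 14 genes of MHC class I and its peptide supply tested, 6 rose, 1 fell and 7 did not pass (median 0.37). H2-K1, a class I heavy chain, read 13.72 and 13.80 under vehicle and 14.34 and 14.27 under trametinib (0.55 ± 0.09, 1.46-fold). Tapbp, the gene of tapasin, which loads peptides on class I, rose by 1.78 ± 0.20, and the peptide transporter subunit Tap2 by 1.37 ± 0.28. Tapbp rose by 1.15 as the mean of its probe sets and Tap2 by 0.76 with the end ratio as a term. Only 4 rises were left without any 1 of the 4 arrays or with that ratio as a term. MHC class II, whose genes are expressed mainly by antigen-presenting cells, rose in 5 of 8 genes tested and fell in 0 (median 1.11). H2-Aa read 7.73 and 9.02 under vehicle and 11.10 and 10.55 under trametinib, a rise of 2.45 ± 0.41 (adjusted p = 0.000801) or 5.46-fold. The vehicle arrays lay further apart than the trametinib arrays, and both were below them. Cd74, the invariant chain (1.92 ± 0.38), H2-Ab1 (1.50 ± 0.31) and H2-Eb1 (1.42 ± 0.28) rose alongside it. The 4 genes kept their calls in every alternative run, with H2-Ab1 at 0.95 when the end ratio was a term and 0.92 as the mean of its probe sets.

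**Figure D3:**
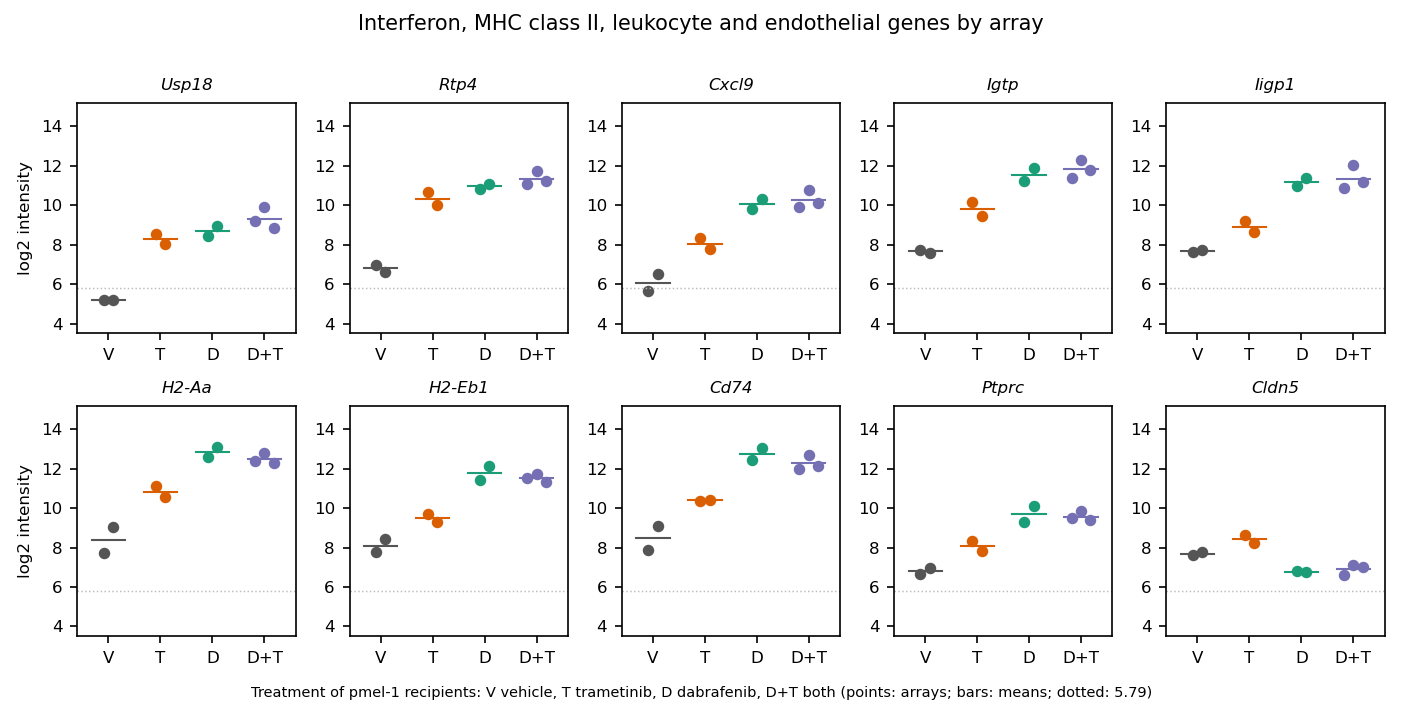
Log2 intensity (vertical axis) of 10 genes of the interferon response, MHC class II, leukocytes and endothelium, 1 panel per gene. Points are single arrays of pmel-1 recipients (V vehicle, T trametinib, D dabrafenib, D+T both drugs), bars are group means and the dotted line marks 5.79. For Cxcl9, H2-Aa and Ptprc the trametinib arrays lie between vehicle and the other drug groups (8.35 and 7.80 for Ptprc, against 6.67 and 6.94 under vehicle), while Usp18 and Rtp4 lie far above vehicle and Cldn5 lies above every array of the other groups.

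Markers of immune cells moved less. Of 12 general leukocyte genes tested, 4 rose and 0 fell, against 19.5% and 19.1% of all genes, with a median of 0.37. Ptprc, the leukocyte surface phosphatase CD45, read 6.67 and 6.94 under vehicle and 8.35 and 7.80 under trametinib (1.27 ± 0.27, adjusted p = 0.00336), and rose by 0.75 with the end ratio as a term and by 0.67 as the mean of its probe sets. Cd52 rose by 1.02 ± 0.23, or by 0.78 (adjusted p = 0.0541) without trametinib replicate 1 and 0.59 (adjusted p = 0.0525) with the end ratio as a term, neither of which passed. The mean level of the 12 genes was 7.75 and 7.84 under vehicle and 8.39 and 8.05 under trametinib. For comparison, it was 9.12 and 9.59 under dabrafenib and 9.17 to 9.56 under both drugs. The count was 1 rise and 1 fall without trametinib replicate 1 or with the end ratio as a term, and the rises were 2 without either vehicle array and 3 without trametinib replicate 2.

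No T cell gene passed: of 6 tested 0 rose and 0 fell by limma (median 0.31), and 2 of the 6 had an unadjusted p under 0.05, against 46.8% of all genes. Cd3e, a signalling chain of the T cell receptor, read 6.99 and 7.07 under vehicle and 7.21 and 7.28 under trametinib (0.22 ± 0.15, adjusted p = 0.292). Cd3d differed by 0.40 ± 0.17 and Cd4 by 0.12 ± 0.12. Cd3g lay under 5.79 on all 4 arrays. Of the other 8 T cell genes listed, 4 did not reach the filter and 4 had no probe set of that symbol alone. Of 9 genes of cytotoxic and NK cells tested 4 rose and 0 fell, against 19.5% and 19.1% of all genes. Ccl5, a chemokine of activated T cells, read 7.87 and 7.91 under vehicle and 9.02 and 8.98 under trametinib (1.10 ± 0.30, adjusted p = 0.0135). The NK receptor gene Klrd1 (1.03 ± 0.36), near background under vehicle, the granule protein gene Nkg7 (0.76 ± 0.24) and the granzyme gene Gzma (0.75 ± 0.23) made up the others. Ccl5 lost its call without any 1 of the 4 arrays (1.09 to 1.12). Klrd1 lost it without vehicle replicate 1 (0.78), vehicle replicate 2 (1.28) or trametinib replicate 1 (0.70), Nkg7 without vehicle replicate 1 (0.48) or trametinib replicate 1 (0.61), and Gzma without vehicle replicate 2 (0.60), trametinib replicate 1 (0.77) or trametinib replicate 2 (0.73). Their number was 0 without trametinib replicate 1, 1 without either vehicle array, 2 without trametinib replicate 2, and 0 with the end ratio as a term. Gzmb, the main granzyme of killer cells, lay under 5.79 on all 4 arrays. Of 5 checkpoint genes tested 2 rose and 0 fell, against the same shares of all genes, and with the end ratio as a term 0 rose. Cd274, which encodes the checkpoint ligand PD-L1, read 6.48 and 6.35 under vehicle and 7.50 and 7.45 under trametinib (1.06 ± 0.29, adjusted p = 0.0127). It lost its call without vehicle replicate 2 (1.0, adjusted p = 0.0678) or trametinib replicate 1 (1.04, adjusted p = 0.0621), and was 0.45 (adjusted p = 0.123) with the end ratio as a term. Lgals9, the gene of galectin 9, rose by 0.71 ± 0.25 and lost its call without any 1 of the 4 arrays (0.52 to 0.91). Of 3 regulatory T cell genes tested 1 rose and 2 did not pass, where 19.5% of all genes rose. The rise was that of Ikzf2, which encodes the factor Helios, from 8.19 and 8.24 to 9.97 and 9.51 (1.53 ± 0.22). Foxp3, Il2ra and Ctla4, the other genes listed for these cells, did not reach the filter.

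Myeloid genes gave no uniform picture. Of 14 macrophage genes tested, 1 rose and 2 fell, below the shares over all genes (19.5% and 19.1%). Csf1r, the receptor for macrophage growth factor, read 8.85 and 9.12 under vehicle and 10.16 and 9.42 under trametinib and did not pass (0.80 ± 0.32, adjusted p = 0.0664). Arg1 (−1.40 ± 0.46) and the mannose receptor gene Mrc1 (−1.05 ± 0.32), both known from alternatively activated macrophages, fell. Arg1 was −0.90 without vehicle replicate 1, −1.65 without trametinib replicate 1 and −1.15 without trametinib replicate 2, and passed in none of these. Mrc1 was −0.84 without vehicle replicate 2 or trametinib replicate 2 and did not pass. Apoe, a lipid carrier of macrophages, rose by 0.53 ± 0.14, but not without vehicle replicate 2 (0.46) or trametinib replicate 2 (0.49). The number of macrophage rises was 3 and of falls 0 without trametinib replicate 2, rises numbered 0 without vehicle replicate 2, and falls 1 without any other array or with the end ratio as a term. Mrc1 was −1.68 with that ratio. Of 4 neutrophil, 4 dendritic cell and 4 B cell genes tested, 1, 1 and 0 rose, against 19.5% of all genes. These were Trem1, a myeloid activating receptor gene (0.44 ± 0.13), and Itgax, an integrin gene of dendritic cells (0.78 ± 0.24). Trem1 lost its call without 3 of the 4 arrays (0.48 without trametinib replicate 2, 0.30 without vehicle replicate 1 and 0.40 without trametinib replicate 1). Itgax lost its call without vehicle replicate 1 (0.59) or trametinib replicate 1 (0.56).

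Among stromal genes, those of endothelium rose in part. Of 10 endothelial genes tested 5 rose and 0 fell (median 0.59), against 19.5% and 19.1% of all genes. Vwf, the clotting factor carrier of endothelium, read 5.88 and 5.37 under vehicle and 7.02 and 6.89 under trametinib (1.33 ± 0.29), and Esam, an adhesion molecule, rose by 0.69 ± 0.15. Both kept their calls in every alternative run, with Vwf at 0.79 when the end ratio was a term, and Pecam1, an adhesion molecule between endothelial cells (0.50 ± 0.19, adjusted p = 0.0521) did not pass. The rises numbered 2 without vehicle replicate 1, 3 without any other array and 2 with the end ratio as a term. Of 13 fibroblast and matrix genes tested 0 rose and 1 fell (median 0.68), below those shares of all genes. The fall was that of Thbs1, the gene of thrombospondin (−1.84 ± 0.45, or −1.21 with adjusted p = 0.0937 with the end ratio as a term). Col1a1 read 9.30 and 8.52 under vehicle and 10.88 and 9.74 under trametinib and did not pass (1.40 ± 0.76). By limma 0 of 5 adipocyte, 3 keratinocyte and 3 skeletal muscle genes passed, and 0 had an unadjusted p under 0.05. Of 2 erythroid genes tested Alas2, which starts haem synthesis in red cells, fell by 1.57, but not without vehicle replicate 1 (−1.11), trametinib replicate 1 (−1.77) or trametinib replicate 2 (−1.37).

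**Figure D4:**
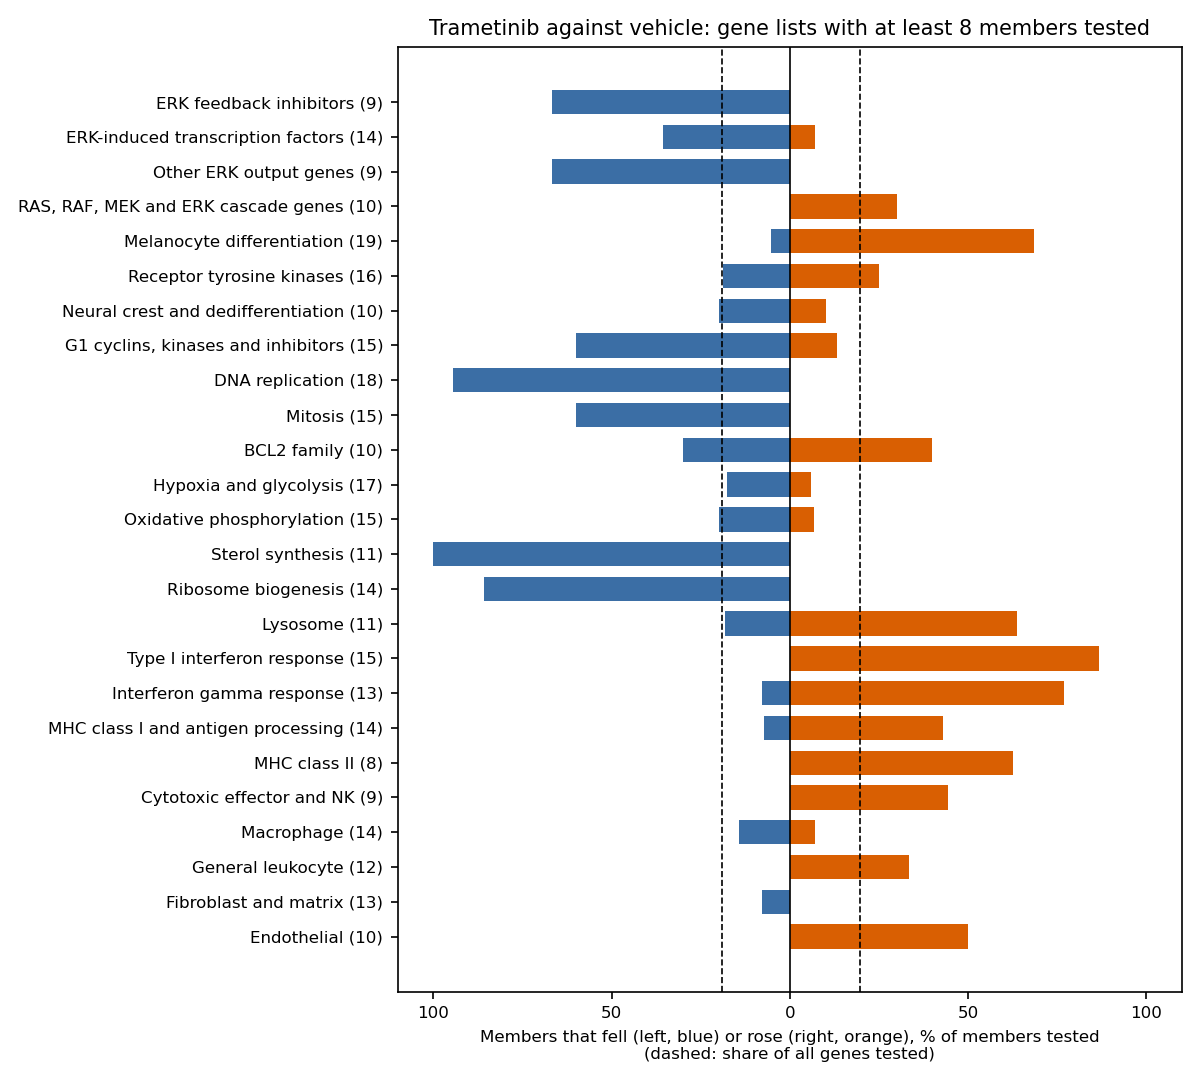
Percent of the genes tested in each group that rose (right) or fell (left) under trametinib against vehicle, for groups with at least 8 genes tested. Dashed lines mark the shares over all 13785 genes, 19.5% risen and 19.1% fallen. DNA replication, sterol synthesis and ribosome biogenesis have the widest bars to the left, and the type I interferon, interferon gamma and melanocyte groups the widest to the right.

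Trametinib was then set against dabrafenib, to ask where inhibition of MEK and of BRAF left different levels. The vehicle arrays take no part in this comparison, but the trametinib arrays are those used above. Only 107 genes differed (0.776%), 26 of them higher (0.189%) and 81 lower (0.588%) under trametinib. The share of higher genes among those that differed was 24.3%, or 37.2% after each array was centred on its median. The comparison rests on single arrays. Without trametinib replicate 2, 0 genes passed (974 at an unadjusted p under 0.05), and 0 passed when only these 4 arrays were fitted (1245 unadjusted). The count was 23 without trametinib replicate 1, 8 without dabrafenib replicate 2 and 283 without dabrafenib replicate 1. The dabrafenib arrays were less alike than the trametinib arrays, with r = 0.983 and 255 genes 2-fold or more apart.

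Most groups described above showed no called difference between the inhibitors. In the ERK feedback, ERK transcription factor, other ERK output, melanocyte, DNA replication, mitosis and sterol groups limma called 0 genes, and 1 of 9, 3 of 14, 1 of 9, 5 of 19, 1 of 18, 5 of 15 and 3 of 11 had an unadjusted p under 0.05, against 11.8% of all genes. For the G1 cyclins, kinases and inhibitors limma called 0 of 15 too, but 7 had an unadjusted p under 0.05. Of 10 endothelial genes 1 was called and 6 had an unadjusted p under 0.05. How far a difference can be bounded varied. The 95% interval lay within 2-fold in either direction for 18 of 18 replication genes, 15 of 15 mitosis genes, 11 of 11 lysosome genes and 15 of 19 melanocyte genes, against 93.8% of all genes tested. It did so for only 4 of 9 ERK feedback genes and 7 of 14 ERK transcription factors. Both trametinib arrays read below both dabrafenib arrays in 10 of 15 mitosis, 7 of 15 G1, 5 of 11 sterol and 1 of 18 replication genes, against 20% of all genes. The median difference of the mitosis group was −0.31. For Pmel the difference was 0.01 (−0.32 to 0.34), for Mcm6 0.11 (−0.22 to 0.44), for Etv4 −0.23 (−0.50 to 0.04) and for Hmga2 −0.26 (−1.03 to 0.51). For Etv5 it was −2.10 (−4.51 to 0.31), with 11.39 and 7.27 under dabrafenib, and for Ccnd1 −1.16 (−2.05 to −0.26, adjusted p = 0.271), with 11.08 and 9.51. Dabrafenib replicate 1 thus read these genes nearer to vehicle than replicate 2 did. Kcnj13 differed by 0.76 (0.17 to 1.36, adjusted p = 0.275) and did not pass.

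Genes lower under trametinib than under dabrafenib included 6 of 8 MHC class II genes, 7 of 12 general leukocyte genes and 2 of 14 genes of MHC class I and its peptide supply. Adgb, which is in none of the gene lists, was lower by limma as well (−2.58, adjusted p = 0.00465), and was −2.86 to −2.3 when 1 array was left out. H2-Eb1 read 9.71 and 9.31 under trametinib and 11.42 and 12.13 under dabrafenib, a difference of −2.27 (−2.89 to −1.65, adjusted p = 0.00997). Cd74 read 10.36 and 10.42 against 12.46 and 13.02 (−2.35, −3.18 to −1.53, adjusted p = 0.0226). Ptprc read 8.35 and 7.80 against 9.31 and 10.08 (−1.62, −2.21 to −1.03, adjusted p = 0.0255). In the interferon gamma group 4 of 13 genes were lower, among them Cxcl9 (−2.02, −2.75 to −1.28, adjusted p = 0.0255), Iigp1 (−2.26, −2.97 to −1.55) and Igtp (−1.76, −2.48 to −1.04). With the replicate number as a block 3 MHC class II, 3 leukocyte and 0 interferon gamma genes were lower. In the type I group limma called 0 of 15 genes (6 at an unadjusted p under 0.05), and Rtp4 was −0.62 (−1.17 to −0.07, adjusted p = 0.355). Both trametinib arrays read below both dabrafenib arrays in 12 of 12 leukocyte, 12 of 13 interferon gamma and 7 of 8 MHC class II genes, against 20% of all genes tested. The NK receptor gene Klrd1 (−2.23, −3.02 to −1.45) and Ms4a4b, a lymphocyte membrane protein that lay under 5.79 on all vehicle and trametinib arrays (−2.58, −3.37 to −1.79), were lower too. None of these calls held without trametinib replicate 2, where H2-Eb1 was −2.07 (adjusted p = 0.147), Cd74 −2.39 (adjusted p = 0.232), Ptprc −1.34 (adjusted p = 0.245), Cxcl9 −1.73 (adjusted p = 0.245), Iigp1 −1.97 (adjusted p = 0.229), Igtp −1.40 (adjusted p = 0.332), Klrd1 −1.90 (adjusted p = 0.235) and Ms4a4b −2.32 (adjusted p = 0.212). Without dabrafenib replicate 2 none of the 8 passed either, with H2-Eb1 at −1.91 (adjusted p = 0.052) and Ptprc at −1.23 (adjusted p = 0.137). Without trametinib replicate 1, H2-Eb1, Iigp1 and Ms4a4b passed and the other 5 did not, with Cd74 at −2.32 (adjusted p = 0.104) and Ptprc at −1.90 (adjusted p = 0.0591).

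Of the 26 genes higher under trametinib than under dabrafenib, the 6 taken by the rule for named genes have no listed group in common. The inducible heat shock genes Hspa1a (2.86, 1.75 to 3.98, adjusted p = 0.0314) and Hspa1b (2.55, 1.53 to 3.58, adjusted p = 0.0342) were higher under trametinib than under dabrafenib. These are near-identical copies whose probes may cross-hybridise, so they count as 1 signal. Hspa1a read 10.43 and 10.46 under trametinib, 8.25 and 6.91 under dabrafenib and 10.62 and 8.80 under vehicle, so its arrays lay within the range of the vehicle arrays (0.74 ± 0.51). Cldn5, the tight junction protein of endothelium, read 8.63 and 8.24 under trametinib, 6.79 and 6.76 under dabrafenib and 7.60 and 7.75 under vehicle, and was higher than under dabrafenib by 1.66 (1.06 to 2.27, adjusted p = 0.0255). The phosphatase gene Ptp4a3 (1.15, 0.76 to 1.53), the collagen hydroxylase gene P4ha2 (1.26, 0.81 to 1.71) and the proteoglycan gene Sdc1 (1.13, 0.68 to 1.57) were higher as well. Each of the 6 lost its call without trametinib replicate 2 or dabrafenib replicate 2: Hspa1a was 2.85 and 2.19, Hspa1b 2.62 and 1.94, Cldn5 1.86 and 1.65, Ptp4a3 0.96 and 0.92, P4ha2 1.17 and 0.96 and Sdc1 0.89 and 0.78. Without trametinib replicate 1 only Ptp4a3 of the 6 passed, and Hspa1a was 2.88, Hspa1b 2.49, Cldn5 1.47, P4ha2 1.35 and Sdc1 1.36. Sdc1 was 0.66 as the mean of its probe sets. In the hypoxia and glycolysis group the median difference from dabrafenib was 0.73 and limma called 0 of 17 genes (12 at an unadjusted p under 0.05), but 12 were higher without dabrafenib replicate 1. Slc2a1, the glucose transporter, read 11.68 and 11.94 under trametinib and 11.03 and 9.99 under dabrafenib (1.30, 0.58 to 2.01, adjusted p = 0.112).

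**Figure D5:**
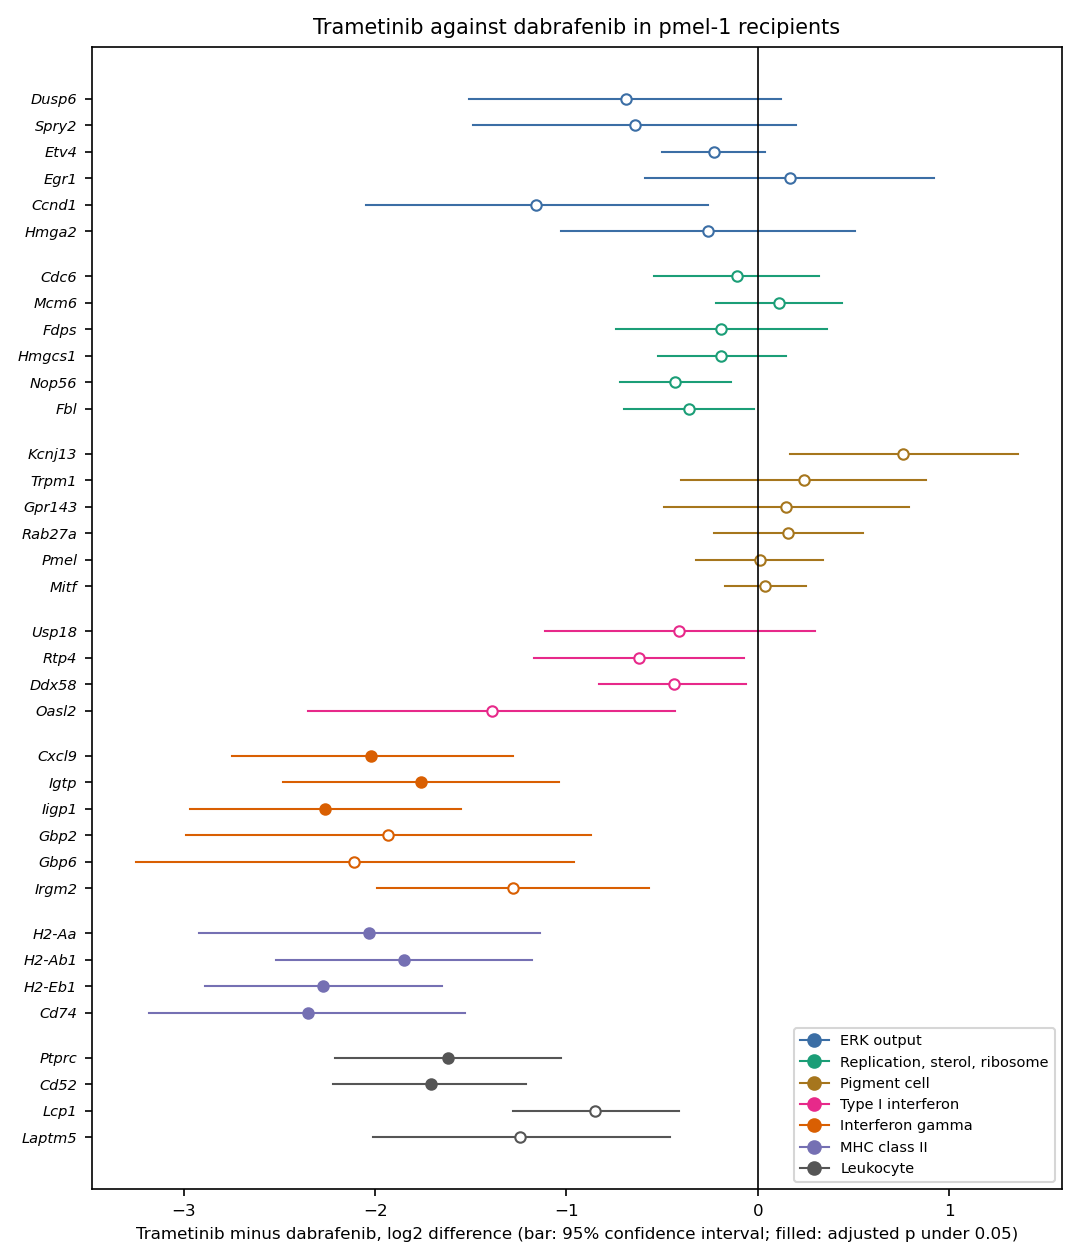
Difference between trametinib and dabrafenib on the log2 scale (horizontal axis) with its 95% interval for named genes. Filled points have an adjusted p under 0.05 and open points do not. Genes of ERK output, pigment and replication have open points, with a wide interval for Ccnd1 (−2.05 to −0.26), and the points of interferon gamma, MHC class II and leukocyte genes lie to the left of 0.

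The combination was compared with trametinib to ask what dabrafenib added. It changed 151 genes (1.1%), with 118 higher (0.856%) and 33 lower (0.239%) under both drugs. The share of higher genes among these was 78.1%, or 66.9% after each array was centred on its median. Of the interferon gamma genes 9 of 13 were higher, of the leukocyte genes 9 of 12, of the MHC class II genes 5 of 8 and of the type I genes 3 of 15. With the replicate number as a block these counts were 1, 2, 2 and 0. Iigp1, an interferon-induced GTPase, read 10.85, 12.02 and 11.19 under both drugs and 9.20 and 8.63 under trametinib (2.44 ± 0.29, adjusted p = 0.00854). H2-Eb1 was higher by 2.0 ± 0.26 (adjusted p = 0.00854) and Cd52, a small leukocyte surface protein, by 1.75 ± 0.21 (adjusted p = 0.00854). Gbp6 (2.61), Gbp2 (2.37), Cxcl9 (2.22) and Ms4a4b (2.2) were higher too. So was Adgb (1.9, adjusted p = 0.00854 by limma), which is in none of the gene lists. Cd3g, the one T cell gene of 6 that passed, read 6.35, 7.42 and 6.59 under both drugs and lay under 5.79 under trametinib (1.60, adjusted p = 0.0192). Lower under both drugs were Cldn5 (−1.53 ± 0.25), the early response factor gene Atf3 (−1.22 ± 0.22), the sialyltransferase gene St6galnac2 (−1.05 ± 0.16) and Wfdc3 (−1.77 ± 0.32). In the ERK feedback, melanocyte and DNA replication groups limma called 0 genes (2 of 9, 4 of 19 and 6 of 18 at an unadjusted p under 0.05, against 12.9% of all genes), and Pmel differed by −0.01, Dusp6 by 0.76 (0.02 to 1.51, adjusted p = 0.375) and Mcm6 by 0.09. In the mitosis group limma called 0 of 15 genes too, but 15 of 15 had an unadjusted p under 0.05, with a median of 0.53 higher under both drugs, and 6 passed with the end ratio as a term. Without trametinib replicate 2 again 0 genes passed (979 unadjusted). The count was 28 without trametinib replicate 1, 63, 42 and 102 without combination replicate 1, 2 or 3. Without trametinib replicate 2 Iigp1 was 2.15 (adjusted p = 0.186), H2-Eb1 1.81 (adjusted p = 0.186), Cd52 1.51 (adjusted p = 0.186), Cd3g 1.46 (adjusted p = 0.288), Cldn5 −1.73 (adjusted p = 0.186), Atf3 −0.96 (adjusted p = 0.388), St6galnac2 −0.98 (adjusted p = 0.288) and Wfdc3 −1.89 (adjusted p = 0.288). Without trametinib replicate 1 the calls of Cd3g (1.73), Cldn5 (−1.33), Atf3 (−1.47), St6galnac2 (−1.13) and Wfdc3 (−1.65) were lost too. Leaving out combination replicate 1 ended those of Cldn5 (−1.38), Atf3 (−1.26) and Wfdc3 (−1.71), replicate 2 those of Atf3 (−1.25), St6galnac2 (−0.99) and Wfdc3 (−1.70), and replicate 3 that of Atf3 (−1.14). As means of all probe sets St6galnac2 was −0.65 and Wfdc3 −0.97. Both comparisons with trametinib share its 2 arrays, so they are not independent of each other.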

How the data were processed

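RNA of SM1 tumours had been hybridised to GeneChip mouse expression arrays, 13 in all. The authors deposited log2 intensities, which they had normalised by RMA with affy, per the submitters' processing notes, versions not given. Array medians were 6.31 to 6.41. Of 45101 probe sets, 34945 carried 1 symbol, 932 several and 9160 none, besides 64 controls, which left 18193 symbols. Each gene was read from its probe set of highest mean. A gene was tested if above 5.79 on at least 2 arrays. Models were fitted with limma 3.58.1 in R 4.3.3 to all 13 arrays in 6 groups, leaving 7 residual degrees of freedom, with Benjamini-Hochberg adjustment over the 13785 genes tested, and the script was tested on simulated data. The number of arrays limits the precision.

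Named were the 12 largest non-overlapping rises and falls against vehicle, 6 each way in the other comparisons, and the leading member and up to 4 members of smallest p of each gene list, with all members of the ERK, cascade and melanocyte lists. Some genes that met this rule are not described above. The genes, lists and rule were chosen with earlier results of these data known. Alternatives were the arrays fitted, a replicate block, filters, probe sets, scaling, weights, the variance prior, the end ratio as a term and leaving out each array. The Adipoq level as a term, a crossed block and the leave-one-out counts of lists were chosen after seeing the data. Promoters came from RefSeq (GRCm38.p6) for 11083 of the genes tested.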

Additional observations from a re-analysis of the deposited data

Results flagged for a closer look

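Outside the genes named above, 3933 probe sets without a gene symbol passed the same filter and were tested apart from them. Of these, 979 changed under trametinib against vehicle (limma, adjusted p under 0.05 over these probe sets), 24.9% of those tested, with 755 higher and 224 lower. They are flagged because the comparisons of genes did not use them. Which transcripts they measure was not analysed here.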

How the results depend on the processing

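The count of genes changed by trametinib against vehicle was 3563 to 6120 under every alternative that kept the threshold, and 1285 with a change of at least 2-fold required. Against dabrafenib the main count of 107 became 0 when only the arrays compared were fitted, 162 after renewed quantile normalisation, 290 with the end ratio and 266 with the Adipoq level as a term, and 0 to 283 when 1 array was left out. For the combination against trametinib the main count of 151 became 286 with array weights, 373 with the end ratio, 342 with the Adipoq level, and 0 to 102 when 1 array was left out. The causes of these shifts were not tested. Fabp4, an adipocyte gene, differed by 0.10 between trametinib and vehicle and did not pass, but by −2.68 with the end ratio and −1.47 with the Adipoq level as a term. Of 146 named genes called against vehicle, 103 kept their call with the end ratio as a term and 111 to 124 when 1 array was left out.

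The labels do not say whether arrays with the same replicate number belong together. The deviations of same-numbered arrays correlated at 0.05 for trametinib and vehicle and at −0.37 for trametinib and dabrafenib. With the replicate number as a block the counts were 4731 against vehicle, 24 against dabrafenib and 12 for the combination against trametinib. Of the named genes called in these comparisons, 141 of 146, 5 of 21 and 4 of 30 kept their call. Interferon gamma, leukocyte and MHC class II genes lower than under dabrafenib then numbered 0, 3 and 3, those higher under both drugs 1, 2 and 2, with 0 type I genes, and 3 fibroblast and matrix genes rose against vehicle. With the dabrafenib numbers crossed, a pairing chosen after seeing the data, 55 genes differed from dabrafenib.

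With 2 arrays a group, a difference is judged by the spread of all 13 arrays. Probe sets under 5.79 carry little signal above background, so differences there have no exact size.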
